A study of Mus musculus with 22 samples.

Results

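The kidneys described here were taken 5 days after the left ureter had been tied off, or after a sham operation, and were profiled on 5 of the 22 arrays of a time course in mice. Members were the arrays titled for day 5: 3 of obstructed kidney, named S31L, S19L and S21L, and 2 of sham kidney, named S32L and S22L. All mice were of the strain C57BL/6. In the obstructed group the left ureter was ligated, in the sham group it was dissected free without a ligature, and the tissue in both was kidney. The other 17 arrays held the same operations at days 1, 2 and 9. The labels do not give sex or age, and they do not say whether each array came from its own mouse, so p-values below measure the spread between arrays. Kidney RNA carried Cy5 and a common mouse reference RNA carried Cy3 on the same array, and a level below is a log2 ratio of kidney over reference after subtraction of the array median. Differences are obstructed minus sham on the log2 scale, ± the standard error of a limma fit over all arrays of the series, with n = 3 obstructed and n = 2 sham. A gene was called changed at a Benjamini-Hochberg adjusted p below 0.05 over the 17021 genes tested.

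Urine that cannot leave the kidney raises the pressure in the tubules, and ureteral obstruction is widely used in mice to study how tubular injury leads to inflammation and scarring. Injured tubule cells switch on stress genes and secrete chemokines, small proteins that draw leukocytes out of the blood. Macrophages and fibroblasts then accumulate between the tubules, and fibroblasts that become myofibroblasts deposit collagen. Tubule cells normally run on fatty acids burned in densely packed mitochondria.

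The genes for chemokines that attract neutrophils were among those with the largest differences at day 5, and 3 of them lie close together on chromosome 5. Their promoters are printed because letters that resemble the binding motif of the transcription factor NF-kB, a switch for inflammatory genes, occur in each. The sequences are from RefSeq for the mouse build GRCm38.p6, plus strand, and cover the 250 bases before the start of the gene. Capitals mark matches to GGGNNTTTCC on either strand.
Cxcl1: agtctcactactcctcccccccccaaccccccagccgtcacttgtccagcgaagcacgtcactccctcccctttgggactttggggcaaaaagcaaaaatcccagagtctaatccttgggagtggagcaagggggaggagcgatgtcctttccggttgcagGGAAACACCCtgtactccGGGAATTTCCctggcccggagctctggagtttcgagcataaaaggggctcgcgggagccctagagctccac
Cxcl2: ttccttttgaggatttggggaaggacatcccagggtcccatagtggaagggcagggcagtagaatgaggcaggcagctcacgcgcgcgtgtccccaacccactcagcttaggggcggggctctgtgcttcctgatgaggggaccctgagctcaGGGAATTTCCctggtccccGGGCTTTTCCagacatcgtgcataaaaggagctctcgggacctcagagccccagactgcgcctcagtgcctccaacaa
Cxcl3: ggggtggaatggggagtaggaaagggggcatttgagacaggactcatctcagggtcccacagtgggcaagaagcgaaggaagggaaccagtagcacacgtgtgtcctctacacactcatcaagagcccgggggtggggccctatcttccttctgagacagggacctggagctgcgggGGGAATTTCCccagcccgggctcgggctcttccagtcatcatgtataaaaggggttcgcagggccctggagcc
The windows are chr5:90890995-90891244 for Cxcl1, chr5:90903649-90903898 for Cxcl2 and chr5:90785851-90786100 for Cxcl3. Counted from the start of the gene, Cxcl1 held a minus-strand match from -89 to -80 and a plus-strand match from -71 to -62. Cxcl2 held plus-strand matches from -97 to -88 and from -78 to -69, and Cxcl3 a plus-strand match from -73 to -64. No 2 matches overlapped. The same letters were found in 464 of 32851 promoter windows of this length, or 1.41%, and in 224 of the 13677 tested genes with a window, or 1.64%. Of the 6 neutrophil-attracting chemokine genes with a window these 3 held a match. A match is a run of letters and not a measured binding site.

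The kidney identity of the samples was checked on marker genes of its segments. The sodium-potassium-chloride cotransporter gene of the thick ascending limb, Slc12a1, lay between 7.24 and 9.03 on the 5 arrays. The proximal tubule phosphate transporter gene Slc34a1 lay between 5.99 and 6.43. Each was above the reference on all 5 arrays. The arrays gave a measured ratio at 37956 to 39091 of 45220 spots, and the number of arrays limits the precision. Levels correlated across genes with r = 0.956 between the sham arrays and r = 0.967 between S31L and S19L, against 0.921 and 0.923 between S21L and those other obstructed arrays, with genes not independent. The level of Xist, the transcript of the inactive X chromosome in females, was 1.57 on sham S22L and 1.84 on obstructed S21L but -5.52, -5.70 and -6.00 on S32L, S31L and S19L. The Y-linked gene Eif2s3y ran the opposite way, at -5.05 and -7.22 on S22L and S21L and at 0.87, 2.29 and 1.89 on the other three. Each operation group thus held arrays of both patterns. With the Xist level as a covariate, an alternative chosen after seeing the data, 4534 genes were called and 4267 of them were shared with the 4428 described next.

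Obstruction was accompanied at day 5 by a broad difference in gene expression. Of 17021 genes, 4428 were called, or 26.0%, with 2539 higher (14.9%) and 1889 lower (11.1%) in the obstructed kidneys. Large differences were mostly rises: 1233 genes rose and 554 fell by at least 2-fold, and 102 rose but only 2, Slc22a29 and Grpr, fell by at least 8-fold. The median over all genes was 0.02. The split of higher against lower depended on scaling: 57.3% of called genes were higher after subtraction of array medians, against 40.0% without it, 44.8% after quantile normalization and 39.9% with exact zeros kept as ratios of 1, settings in which the median of all genes lay at -0.11, -0.08 and -0.11. The obstructed and sham values did not overlap for 4612 genes that were higher (27.1%) and 4246 that were lower (24.9%). The image folder named in the labels held S22L, S19L and S21L in folder 1 and S32L and S31L in folder 2. In both folders 2530 of the 2539 higher and 1886 of the 1889 lower genes had the same sign. These genes were called on the same arrays, and for 2527 and 1871 of them the groups did not overlap. Values that do not overlap fix the sign within each folder, so this count cannot show whether the folder mattered. Without sham S32L 2923 genes were called and without sham S22L 2604, with the lone sham array assumed to vary as the arrays of the other groups do.

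The 12 largest rises among genes with a full name included keratin, chemokine and acute-phase protein genes. Krt20, a keratin of simple and urothelial epithelium, was at -2.17 and -3.92 on sham S32L and S22L and at 4.77, 2.88 and 3.94 on obstructed S31L, S19L and S21L. It rose by 6.91 ± 0.76 on the log2 scale, 120-fold, with a limma adjusted p of 2.64e-05, and the groups were far apart. Levels below are given in this same order of arrays. Sprr2f, which encodes a small proline-rich protein of the cornified envelope, was at 0.40 and 0.34 in sham and at 6.94, 6.49 and 6.34 in obstructed kidneys. Its rise was 6.22 ± 0.60, or 74.4-fold (limma adjusted p = 1.32e-05), and the sham values were nearly the same. Lcn2, whose protein binds iron carriers of bacteria and is released by damaged tubule cells, was at -1.52 and -0.47 in sham and at 3.94, 3.90 and 2.78 in obstructed kidneys, a rise of 4.54 ± 0.48 or 23.3-fold (limma adjusted p = 2.09e-05).

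The other 9 of the 12 largest rises were of Il6, Cxcl5, Cxcl1, Egr2, Wfdc21, Ccl8, Meltf, Col17a1 and Serpina3n, by 5.50, 5.49, 5.26, 5.15, 5.13, 5.07, 4.62, 4.49 and 4.37 in that order. Meltf encodes the iron-binding melanotransferrin, Col17a1 a transmembrane collagen of hemidesmosomes and Serpina3n an acute-phase protease inhibitor. Serpina3n was at -1.69 and -1.39 in sham and at 3.07, 2.68 and 2.74 in obstructed kidneys, with little spread within either group. For all 12 the groups did not overlap, as the naming rule requires, and all 12 stayed called when any day 5 array was left out.

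Transporters and enzymes of the tubule stood among the 12 largest falls beside genes known from other tissues. Slc22a29, a member of the organic anion transporter family, was at 7.56 and 7.83 in sham and at 4.33, 4.19 and 4.61 in obstructed kidneys. It fell by 3.32 ± 0.40 on the log2 scale (limma adjusted p = 5.01e-05), and all 3 obstructed arrays lay well below both sham arrays. Slc13a2, a proximal tubule dicarboxylate cotransporter, was at 4.95 and 3.91 and then at 1.69, 1.62 and 2.46, and fell by 2.51 ± 0.50 (limma adjusted p = 0.00186). Grpr, the receptor of gastrin-releasing peptide, fell by 3.09 ± 0.60, Ccdc169 by 2.85 ± 0.46, Sycn, a protein of pancreatic secretory granules, by 2.73 ± 0.32, Slc6a12, a betaine and GABA transporter, by 2.58 ± 0.42 and the aminoacylase Acy1 by 2.38 ± 0.54. These 7 stayed called when any day 5 array was left out. The other 5 did not: without sham S22L the adjusted p was 0.053 for Bbox1, the last enzyme of carnitine synthesis (difference -2.48), 0.063 for the mitochondrial adenylate kinase Ak4 (-1.93), 0.19 for the sperm protein Smcp (-1.82), 0.19 for the neuronal RNA-binding protein Elavl3 (-2.29) and 0.122 for Insc (-2.33). Elavl3 lost its call also without S32L, S31L or S19L (adjusted p from 0.0609 to 0.106) and Insc also without S32L, S31L or S21L (0.076 to 0.116). Obstructed S21L, at 1.40, lay close to the sham values of 1.50 and 2.45 for Elavl3, while S31L and S19L were at -1.79 and -1.99.

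**Figure D1:**
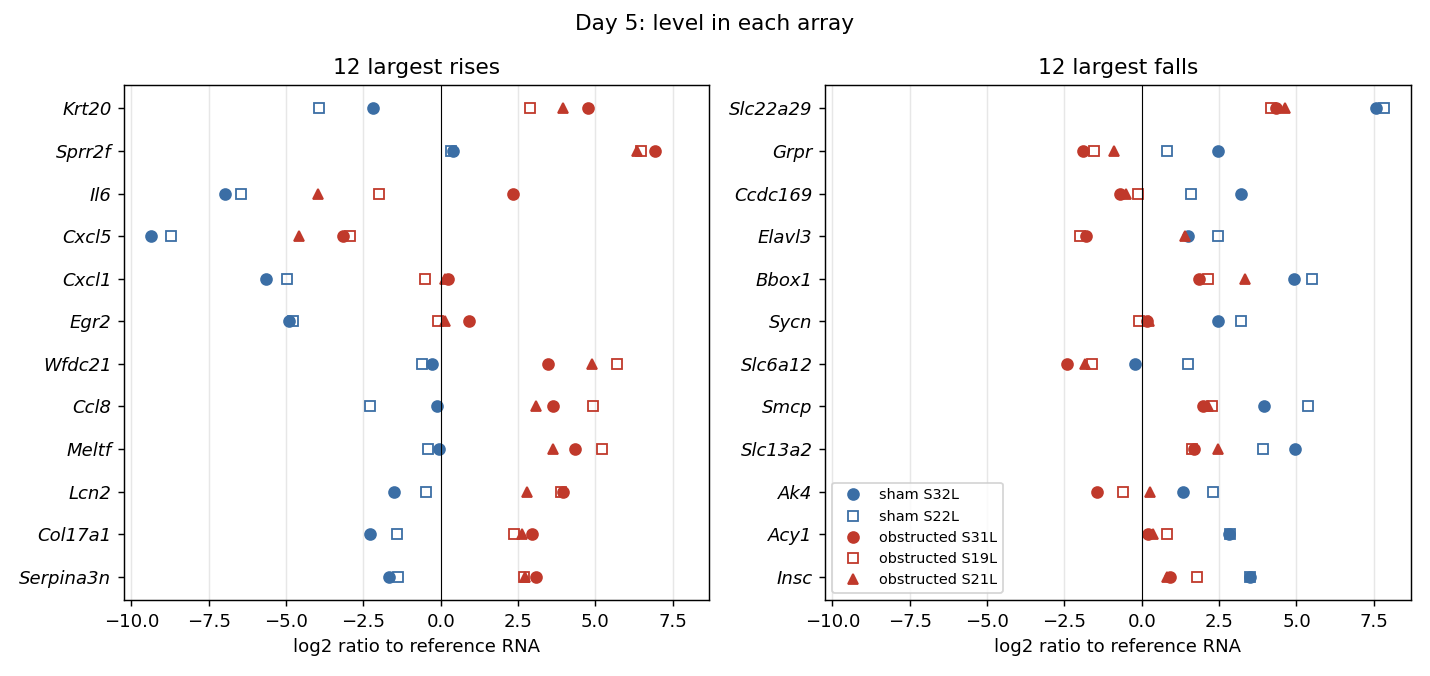
Levels of the 12 largest rises (left) and the 12 largest falls (right) at day 5, as log2 ratios of kidney over reference RNA on the x axis, with a point for each array (blue, 2 sham; red, 3 obstructed; squares and triangles, image folder 1; circles, image folder 2). The red and blue points of each gene do not overlap, and Krt20 runs from -3.92 in sham to 4.77 in obstructed kidney.

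Most genes that mark injured tubules were higher. Of 19 tested markers 16 rose and 0 fell, with a median difference of 2.19 against 0.02 over all genes, and the count stayed at 15 or 16 when any day 5 array was left out. Cp, the copper-carrying acute-phase protein ceruloplasmin, was at -2.73 and -1.83 in sham and at 0.85, 1.00 and 1.09 in obstructed kidneys, a rise of 3.26 ± 0.22 (limma adjusted p = 2.35e-06). Cd44, a hyaluronan receptor, rose by 3.76 ± 0.32, with its 12 probes ranging from 0.63 to 4.34, and Tnfrsf12a, the TWEAK receptor, by 2.61 ± 0.25. Vcam1, an adhesion molecule that binds leukocytes, was at -2.95 and -3.12 and then at 0.76, 0.47 and 1.23, a rise of 3.86 ± 0.37 (limma adjusted p = 1.17e-05). Values of these genes did not overlap between the groups.

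Havcr1, which encodes the kidney injury molecule KIM-1, was at 2.64 and 1.97 in sham and at 4.91, 4.89 and 3.13 in obstructed kidneys, a rise of 2.01 ± 0.52 (limma adjusted p = 0.0100). Its probes disagreed, at 0.33 and 3.68, and without S22L the difference was 1.67 with an adjusted p of 0.105. The cell cycle inhibitor gene Cdkn1a rose by 1.82 ± 0.42. Itgb6, Prom1 and Met were the 3 markers that did not pass, at differences of -0.19, 0.10 and 0.02.

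Immediate early genes, transcription factors that cells switch on within minutes of a stimulus, were also higher: 17 of 22 rose, 0 fell, and the median difference was 1.76. Egr2 was at -4.90 and -4.77 in sham and at 0.91, -0.10 and 0.14 in obstructed kidneys, a rise of 5.15 ± 0.53 or 35.5-fold (limma adjusted p = 1.72e-05). Jun, a subunit of the AP-1 factor, was at -1.98 and -1.97 and then at 0.03, -0.12 and 0.14. It rose by 1.99 ± 0.21, with its 10 probes between 1.94 and 2.05, and the arrays of each group differed by less than 0.3. Klf6 and Maff, both stress-induced factors, rose by 2.57 ± 0.23 and 2.79 ± 0.32. The AP-1 partner Fosb did not pass, at -0.35.

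Chemokines that draw neutrophils differed by more than those that draw monocytes and lymphocytes, as medians of 3.75 over 7 genes and 1.82 over 20, a comparison that was not tested. Of the 7 genes on the neutrophil list, which counts the platelet chemokine gene Pf4, 5 rose and 0 fell. Cxcl1 was at -5.64 and -4.96 in sham and at 0.23, -0.50 and 0.15 in obstructed kidneys, a rise of 5.26 ± 0.56 or 38.4-fold (limma adjusted p = 2.2e-05). Cxcl5 was at -9.37 and -8.72 and then at -3.17, -2.92 and -4.57, a rise of 5.49 ± 0.55 or 44.9-fold (limma adjusted p = 1.58e-05). Both genes were low against the reference RNA on each sham array and higher on every obstructed array. Signal over background was not analysed here, so how far such low ratios bear on the size of these folds was not tested. Cxcl2 rose by 3.75 ± 0.70 and Cxcl3 by 3.96 ± 1.40 (limma adjusted p of 0.00118 and 0.0484), and the obstructed values of Cxcl3 were spread from -0.13 to 2.46. The count for this list was 4 without S32L, S22L, S31L or S19L, without centring, after quantile normalization, with zeros kept, with robust eBayes and with the Xist covariate. The platelet chemokine gene Pf4 rose by 2.74 ± 0.41, and Ppbp and Cxcl15, at 2.52 and -1.09, did not pass.

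Of the 20 chemokines of monocytes and lymphocytes 11 rose and 0 fell. Ccl2, the main attractant of inflammatory monocytes, was at -3.47 and -3.48 in sham and at -1.24, -1.33 and -1.49 in obstructed kidneys, a rise of 2.12 ± 0.26 (limma adjusted p = 5.97e-05) with little spread in either group. Cxcl10, an interferon-induced attractant of T cells, was at -0.62 and -1.14 and then at 2.53, 2.14 and 3.57, a rise of 3.62 ± 0.46. Ccl9 rose by 3.14 ± 0.45 and Ccl5 by 3.0 ± 0.48. Ccl8 rose by 5.07 ± 0.93, from -0.11 and -2.28 to 3.63, 4.91 and 3.08, so that the sham arrays differed by over 2 on the log2 scale. The homeostatic chemokine gene Cxcl12 was at a difference of -0.45 and did not pass.

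Cytokines and their receptors rose in 15 of 19 cases, and 0 fell, with a median difference of 1.67. Il34, a ligand of the macrophage growth factor receptor, was at 0.30 and 1.16 in sham and at 3.90, 3.34 and 3.50 in obstructed kidneys, a rise of 2.85 ± 0.30 (limma adjusted p = 2.2e-05). Csf1, the other ligand of that receptor, rose by 1.21 ± 0.24. Il6, an inflammatory cytokine, was at -6.96 and -6.45 and then at 2.35, -2.0 and -3.97. Its rise of 5.50 ± 1.25 was called in the fit over all arrays (limma adjusted p = 0.00468) and not with the day 5 arrays alone (0.117), and its obstructed arrays differed from each other by over 6. The receptor genes Osmr, Il1r1 and Tnfrsf1b, for oncostatin M, interleukin 1 and tumour necrosis factor, rose by 2.29 ± 0.31, 1.60 ± 0.24 and 1.66 ± 0.21.

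Macrophage markers rose more often than those of any other leukocyte list measured here: 25 of 28 rose and 0 fell, with a median of 2.40. The count was 21 with the day 5 arrays alone, 22 without obstructed S31L and 23 without obstructed S19L. The median was 2.14 without sham S22L and 2.45 without sham S32L. Whether more macrophages or more RNA per cell gave the rise cannot be told apart in bulk tissue, here or for any cell type below. Trem2, a lipid receptor of tissue macrophages, was at -3.59 and -3.82 in sham and at -0.52, -0.30 and -0.92 in obstructed kidneys, a rise of 3.12 ± 0.22 (limma adjusted p = 2.35e-06). Ctss, the lysosomal protease cathepsin S, rose by 3.81 ± 0.44, Fcgr1, a high-affinity antibody receptor, by 3.35 ± 0.40, and Lgals3, galectin-3, by 1.90 ± 0.17. Adgre1, a surface protein of mature mouse macrophages, was at -2.67 and -2.88 and then at -0.22, 0.47 and -0.73, a rise of 2.61 ± 0.40. Obstructed S21L had the lowest obstructed value of Trem2, Ctss, Fcgr1 and Adgre1, and for each of the 5 genes all 3 obstructed arrays lay above both sham arrays. The 3 markers that did not pass were Cx3cr1, Gpnmb and Chil3, at 1.07, 0.55 and 0.56.

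Other leukocyte lists had fewer calls, and their counts, like that of the macrophage markers, depended on single arrays. Of 12 neutrophil markers 7 rose (median 1.84), and without sham S32L 1 was called, without obstructed S31L or without centring 4. S100a8, a calcium-binding protein of neutrophils, was at -3.0 and -1.44 in sham and at 1.82, 0.39 and 0.94 in obstructed kidneys, a rise of 3.27 ± 0.87, and without S32L its difference was 2.49 with an adjusted p of 0.13. Il1r2, the interleukin 1 decoy receptor, rose by 3.16 ± 0.72 and kept its call without any of the 5 arrays. Of 21 T and NK cell markers 7 rose (median 1.02), 2 of them without S22L and 4 without S19L. Il7r, the interleukin 7 receptor, was at 0.70 and 0.10 and then at 4.11, 3.10 and 4.65, a rise of 3.55 ± 0.44 (limma adjusted p = 0.000103). Ccr7, a homing receptor of T and dendritic cells, rose by 2.41 ± 0.47.

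Of 12 B and plasma cell markers 3 rose (median 0.52), with 1 left without S32L, 0 without S22L and 1 without S19L. Among all genes 14.9% were higher, and with the day 5 arrays alone 0 of these 12 markers were called. Obstructed S21L stood apart on this list. Ms4a1, which encodes CD20, was at -2.39 on S21L and between -5.20 and -4.56 on the other 4 arrays. Tnfrsf13c, the BAFF receptor, was at -0.27 on S21L against -4.15 to -3.09. Neither gene passed. The part of this array in other results was tested only by leaving it out.

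MHC class II genes, which present antigen to T cells, rose in 7 of 13 cases, 3 without S32L and 4 without S22L, with a median of 1.05. Cd74, the invariant chain, was at -0.36 and -0.40 in sham and at 2.02, 2.36 and 1.60 in obstructed kidneys, a rise of 2.37 ± 0.33 (limma adjusted p = 0.000119), and H2-DMa rose by 1.47 ± 0.33. Among 13 complement genes 7 rose and 1, Cd59a, fell, with a median of 1.28, and Cd59a was not called without S22L, S31L or S21L. Cfp, properdin, rose by 1.76 ± 0.23, C3ar1, a receptor of the C3a fragment, by 2.23 ± 0.30 and C4b by 3.63 ± 0.63. C3 was not analysed here. Of 26 interferon-stimulated genes 14 rose and 0 fell, with a median of 0.76, and the count was 4 without S32L, 7 without S22L and 9 without S19L. Psmb8, a subunit of the immunoproteasome, rose by 1.59 ± 0.24, the factor Irf1 by 1.22 ± 0.23 and the guanylate-binding protein gene Gbp2 by 1.19 ± 0.26.

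**Figure D2:**
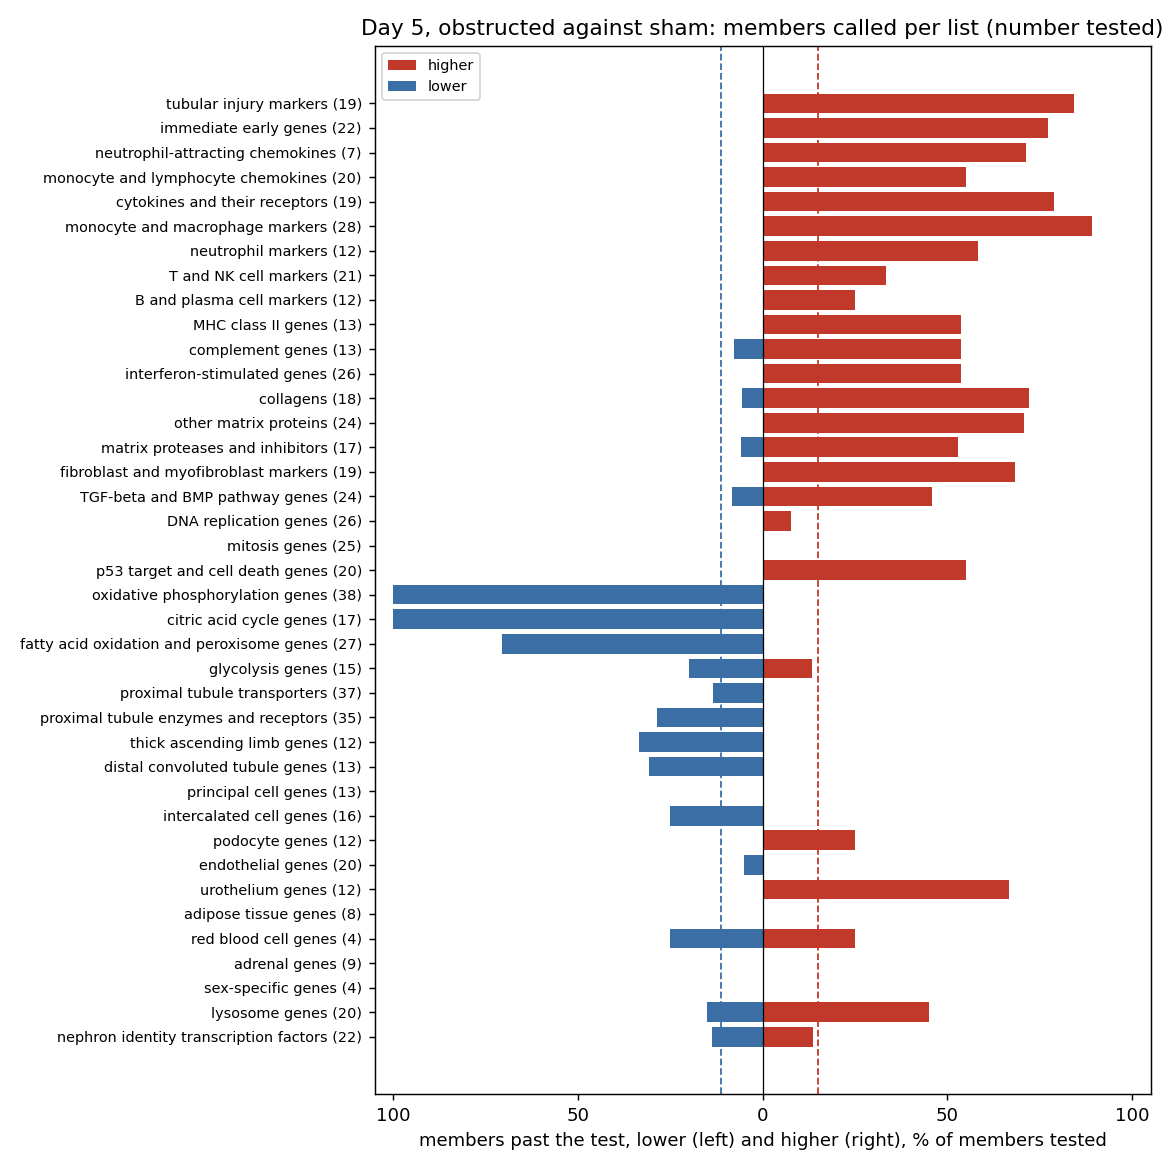
Share of tested members called higher (red, right) and lower (blue, left) at day 5 in each of the 39 gene lists, in percent, with the number of members tested in brackets; dashed lines mark the shares over all genes, 14.9% higher and 11.1% lower. Macrophage markers reach 25 of 28 higher, oxidative phosphorylation genes 38 of 38 lower, and mitosis genes have 0 of 25 called.

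Most collagen genes that were tested rose at day 5. Of 18 collagens 13 rose and 1, Col4a5, fell, with a median of 1.37. Without S22L 6 rose and 0 fell. Col1a1, the main fibrillar collagen chain, was at -1.14 and -3.19 in sham and at 1.13, 1.56 and 0.24 in obstructed kidneys. It rose by 3.14 ± 0.64 or 8.84-fold (limma adjusted p = 0.00223), and the sham arrays differed by over 2. Col3a1 rose by 2.48 ± 0.53. Without S22L the differences were 2.12 and 1.79 with adjusted p of 0.059 and 0.069. Col1a2 and Col5a1, both fibrillar chains, rose by 2.64 ± 0.46 and 1.65 ± 0.30, and the basement membrane chains Col18a1 and Col4a1 by 1.58 ± 0.20 and 1.43 ± 0.29. These 4 kept their calls without any of the 5 arrays.

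Other matrix proteins rose in 17 of 24 cases (median 1.43), and in 7 without S22L. Lox, the enzyme that cross-links collagen, was at -3.49 and -3.99 in sham and at -0.94, -0.96 and -1.84 in obstructed kidneys, a rise of 2.49 ± 0.49 (limma adjusted p = 0.00175). Fbln2 rose by 1.26 ± 0.21, Thbs2, thrombospondin 2, by 1.49 ± 0.28 and the microfibril protein gene Mfap5 by 2.96 ± 0.56. Fibronectin, Fn1, rose by 1.15 ± 0.27 (limma adjusted p = 0.00549), with an adjusted p of 0.068 without S22L and 0.14 after quantile normalization. Among 17 matrix proteases and inhibitors 9 rose and 1, Timp3, fell, with a median of 1.57. Timp3 lost its call without S32L, S22L or S31L. Mmp7, matrilysin, was at 0.77 and 0.99 and then at 4.43, 4.81 and 4.57, a rise of 3.73 ± 0.45 (limma adjusted p = 4.74e-05) with the arrays of each group close together. Timp1, an inhibitor of metalloproteinases, was at -3.77 and -3.70 and then at 0.15, -0.41 and -1.84, a rise of 3.04 ± 0.43. Adamts1, Mmp14 and Adam8 rose by 2.76 ± 0.27, 2.35 ± 0.30 and 3.23 ± 0.42.

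Fibroblast and myofibroblast markers rose in 13 of 19 cases, 8 without S22L, with a median of 1.06. Acta2, the smooth muscle actin of myofibroblasts, was at -1.16 and -1.29 in sham and at 0.10, 0.82 and 0.24 in obstructed kidneys, a rise of 1.61 ± 0.27 (limma adjusted p = 0.000446), with its 13 probes between 0.61 and 1.86. Thy1 rose by 3.02 ± 0.34, the surface protein gene Lrrc15 by 2.09 ± 0.34 and the actin-binding protein gene Tagln by 1.94 ± 0.33. Pdgfra and Itga8 did not pass, at 1.00 and -0.02.

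The pathways of TGF-beta, which drives matrix production, and of BMP, which opposes it in kidney, had 11 of 24 genes higher and 2 lower, with a median of 0.69. Bmp7, made by tubule cells and protective in rodent kidney injury, was at 3.23 and 3.18 in sham and at 1.84, 1.99 and 2.07 in obstructed kidneys. It fell by 1.24 ± 0.12 on the log2 scale (limma adjusted p = 1.58e-05), its 11 probes lay between -1.29 and -1.08, and neither group had an array near the other. Grem1 was the other gene that fell, by 0.53, and 1 gene of the list was lower without S32L and without S22L. Tgfb1 was at -0.99 and -1.42 and then at 0.37, 0.12 and -0.42, a rise of 1.23 ± 0.22 (limma adjusted p = 0.000785). Ltbp2, a latent TGF-beta binding protein, rose by 2.06 ± 0.25, the TGF-beta-induced matrix protein gene Tgfbi by 2.29 ± 0.32 and the activin subunit gene Inhbb by 2.23 ± 0.33.

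Genes of cell death and of the p53 response rose in 11 of 20 cases and fell in 0, with a median of 0.66. Bbc3, which encodes the death-promoting protein PUMA, was at -1.91 and -1.83 in sham and at -0.17, -0.45 and -0.17 in obstructed kidneys, a rise of 1.61 ± 0.14 (limma adjusted p = 8.29e-06) with little spread. Ripk3, a kinase of necroptosis, rose by 1.84 ± 0.26, the inflammatory caspase gene Casp4 by 2.72 ± 0.40 and Pmaip1, NOXA, by 2.09 ± 0.31.

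No mitosis gene passed at day 5, and this count depended on 1 sham array. Of 25 mitosis genes 0 were called, at a median difference of 0.74, which was 0.06 after quantile normalization. The median level of the list was -2.07 on sham S32L and -4.60 on sham S22L, against -2.36, -2.28 and -2.71 on the obstructed arrays. Sham S32L thus lay above all 3 obstructed arrays, and sham S22L far below them. On the 6 sham replicates of the other days it ran from -4.38 to -3.41. Mki67, the proliferation antigen, was at -2.06 and -5.58 in sham and at -2.09, -2.17 and -3.19 in obstructed kidneys, a difference of 1.33 ± 0.67 (limma adjusted p = 0.165). Without S32L the Mki67 difference was 3.09 (adjusted p = 0.000627) and without S22L it was -0.43 (0.575). Top2a, a topoisomerase of dividing cells, was at 0.98 ± 0.49, then 2.02 without S32L (adjusted p = 0.00832) and -0.06 without S22L.

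Without S32L 21 of the 25 mitosis genes rose, and without S22L 0 did, with 2 called with the image folder as a block. DNA replication genes followed the same pattern, with 2 of 26 higher, Mcm4 and Lig1, 12 without S32L and 0 without S22L or S19L. The median of the DNA replication list was 0.42, and -0.17 after quantile normalization, where 0 were called. The list medians for mitosis were 1.77 in image folder 1 and -0.08 in folder 2, where S32L was set against S31L. Whether the array, the folder or the animal of S32L bears on this was not tested.

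**Figure D3:**
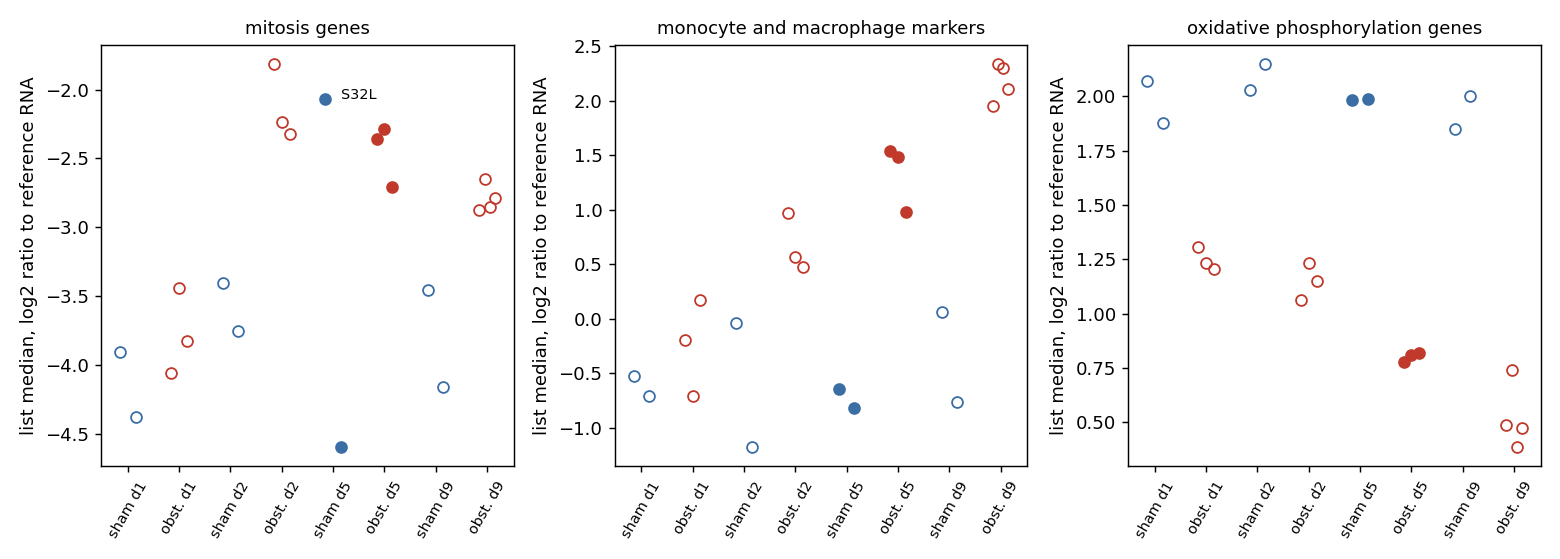
Median level of 3 gene lists on each replicate, as log2 ratio of kidney over reference RNA on the y axis, by operation and day (d) on the x axis (blue, sham; red, obstructed; filled, day 5). In the mitosis panel sham S32L, at -2.07, lies above the obstructed day 5 replicates, while macrophage markers and oxidative phosphorylation genes separate the day 5 groups.

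Transcripts of oxidative phosphorylation and of the citric acid cycle were lower in obstructed kidneys across the whole of each list. All 38 oxidative phosphorylation genes tested fell, as did all 17 genes of the citric acid cycle and its entry, with medians of -1.22 and -1.05 and 0 higher. Across the leave-one-out fits 37 or 38 and 14 to 17 of them stayed lower. Cox5a, a subunit of cytochrome c oxidase, was at 2.62 and 2.61 in sham and at 1.30, 1.16 and 1.24 in obstructed kidneys, and fell by 1.38 ± 0.11 on the log2 scale (limma adjusted p = 5.07e-06). Uqcrfs1 and Uqcrc2 of complex III fell by 1.59 ± 0.14 and 1.21 ± 0.11 and Ndufa8 of complex I by 1.22 ± 0.12. The differences of the 38 genes ranged from -1.59 to -0.73, so that the list moved as a narrow band, and the groups did not overlap for any of them. The mitochondrial malate dehydrogenase gene Mdh2 was at 1.89 and 1.87 and then at 0.65, 0.64 and 0.62, and fell by 1.25 ± 0.14. Suclg1 fell by 1.22 ± 0.16, and Dld and Pdhb, subunits of the pyruvate dehydrogenase complex, fell by 1.05 ± 0.14 and 1.12 ± 0.15.

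Fatty acid oxidation and peroxisome genes fell in 19 of 27 cases, 11 without S32L, with a median of -0.76. Acaa2, the last enzyme of the mitochondrial cycle, was at 3.18 and 3.13 in sham and at 1.37, 1.25 and 1.50 in obstructed kidneys. It fell by 1.79 ± 0.22 on the log2 scale (limma adjusted p = 6.01e-05), and its 10 probes lay between -1.91 and -1.72. Hadh fell by 1.20 ± 0.14, and Etfa and Etfb, which carry electrons to the respiratory chain, by 0.96 ± 0.13 and 1.16 ± 0.18. The regulator Ppara and the rate-limiting carnitine transferase Cpt1a did not pass, at -0.39 and -0.23. Glycolysis genes had no common direction, with 2 of 15 higher, 3 lower and a median of -0.05. The shares over all genes were 14.9% higher and 11.1% lower. The lactate exporter gene Slc16a3 rose by 1.61 ± 0.33 and Pgk1 fell by 0.93 ± 0.18. With no centring, after quantile normalization or with zeros kept 6 were lower, and without S22L 1 was.

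Of 37 proximal tubule transporters 5 fell and 0 rose (median -0.45), with 3 lower without S32L, S22L or S19L, 8 without centring and 10 with zeros kept. That share is close to the 11.1% of all genes that were lower. Apart from Slc22a29, the neutral amino acid exchanger gene Slc7a8 was at 6.01 and 5.86 in sham and at 4.61, 4.75 and 4.57 in obstructed kidneys, and fell by 1.29 ± 0.17 (limma adjusted p = 0.000109). Slc4a4, the basolateral bicarbonate transporter, fell by 1.45 ± 0.33. Slc34a1, the phosphate transporter, was at -0.24 ± 0.16 and did not pass. Proximal tubule enzymes and receptors fell in 10 of 35 cases (median -0.40), 4 without S32L and 6 without S22L. Dpys, a pyrimidine-degrading enzyme, fell by 2.26 ± 0.39, and Miox, the inositol oxygenase of the renal cortex, by 1.00 ± 0.18. Lrp2, the endocytic receptor megalin, was at -0.56 ± 0.25 with probes from -1.24 to 0.16 and did not pass.

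In the thick ascending limb 4 of 12 genes fell (median -0.39), and 2 did without S32L, S22L, S31L or S19L and after quantile normalization. Bsnd, the chloride channel subunit barttin, was at 2.23 and 2.65 in sham and at 1.10, 1.58 and 1.41 in obstructed kidneys, and fell by 1.08 ± 0.19 (limma adjusted p = 0.000869). Slc12a1 fell by 1.19 ± 0.30 and Egf by 0.72 ± 0.23. Slc12a1 had an adjusted p of 0.087 without S22L, and Egf one of 0.063 to 0.168 without S32L, S22L, S31L or S19L. Umod, the urinary protein uromodulin, was at 5.49 and 5.17 and then at 5.07, 5.84 and 5.51. Its difference of 0.14 ± 0.18 did not pass, and the groups overlapped. In the distal convoluted tubule 4 of 13 fell (median -0.32), 1 without S32L. Wnk1, a kinase that regulates salt transport, fell by 0.77 ± 0.13, with its 6 probes from -1.78 to 0.10.

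Of 13 principal cell genes 0 passed (median -0.13), with 1 lower without centring, with zeros kept and without S19L, and 1 higher with array weights and with the Xist covariate. Aqp2, the water channel under vasopressin control, was at 2.82 and 2.88 in sham and at 2.61, 2.68 and 2.68 in obstructed kidneys, a difference of -0.19 ± 0.16 that did not pass (limma adjusted p = 0.418), although the groups did not overlap. Of 16 intercalated cell genes 4 fell (median -0.16), 1 without S32L. Slc4a1, the anion exchanger that red blood cells share, fell by 1.66 ± 0.39. Kl, the Klotho co-receptor of the distal nephron, was at -0.40 ± 0.28 and did not pass. Of 22 transcription factors of nephron identity 3 rose and 3 fell (median -0.25), with 6 lower without centring, with zeros kept or with the Xist covariate, 0 without S22L and 1 without S21L. Both shares are near the 14.9% higher and 11.1% lower among all genes. Those that rose were Sox4, Sox9 and Sox11, by 1.52 ± 0.20, 3.23 ± 0.52 and 1.96 ± 0.36. Sox9, a factor of tubular repair, was at -3.04 and -3.48 and then at 0.78, -0.50 and -0.36, with its 13 probes from 0.64 to 3.81.

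Counts for glomerular, vascular and neighbouring tissue follow here and in the next paragraph. Among all genes 14.9% were higher and 11.1% lower. Of 12 podocyte genes 3 rose (median 0.35), 1 without S31L, with Cd2ap, an adaptor of the slit diaphragm, at 1.01 ± 0.21 (limma adjusted p = 0.00218). Of 20 endothelial genes 1, Ehd3, fell (median -0.09), and it was not called without S32L, S22L or S21L. Urothelial genes, of the lining of pelvis and ureter, rose in 8 of 12 cases (median 1.29) and fell in 0. The urothelial count was 4, 2, 4 and 3 without S32L, S22L, S19L and S21L, and 5 without centring or with zeros kept. Krt14, a basal keratin, was at -1.45 and -1.47 in sham and at 1.39, 1.62 and 0.70 in obstructed kidneys, a rise of 2.69 ± 0.42 (limma adjusted p = 0.000321), and Krt15 rose by 1.53 ± 0.29. The median urothelial level was 1.43 and 1.01 in sham and 2.27, 2.21 and 2.57 in obstructed kidneys, against 0.90 to 2.01 in the sham replicates of the other days.

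Adipose genes had 0 of 8 called at a median of 0.94, with list levels of 5.91 on S32L, 3.91 on S22L and 4.29, 6.13 and 5.72 on the obstructed arrays. The level was therefore low on 1 array of each group. Adrenal genes had 0 of 9 called (median 0.13), though Th, the first enzyme of catecholamine synthesis, was at 2.45 on S21L and between -0.79 and -0.20 elsewhere. Of 4 red blood cell genes 1 rose, Epb42, and 1 fell, Slc4a1, which lost its call without S32L (adjusted p = 0.0504), with a median of 0.26. None of the 4 sex-specific genes passed (median 0.28). The part of these tissues in the results above was not tested. Lysosome genes rose in 9 of 20 cases and fell in 3 (median 0.44), with 5 higher without S22L or S19L, 0 lower without S32L and 1 lower without S21L. Ctsc, cathepsin C, was at 0.28 and 0.63 and then at 2.75, 2.73 and 2.05, a rise of 2.06 ± 0.24 (limma adjusted p = 3.54e-05). Laptm5, a lysosomal membrane protein of leukocytes, rose by 1.90 ± 0.28 and Gusb by 0.80 ± 0.13.

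Day 5 was then set against the other days. The day 5 difference minus the mean of the differences at days 1, 2 and 9 passed for 0 of 17021 genes (0.0%), as did the contrasts with day 2 and with day 9, by limma, with robust eBayes and with array weights alike. At an unadjusted p below 0.05 there were 1028, 1047 and 1270 genes. If no gene differed, a share of 0.05 of the 17021 genes would be expected there, as for the unadjusted counts given below. Without sham S32L 1 gene, Anxa13, passed against the other days and against day 2. Macrophage markers had median differences of 0.52, 1.70, 2.40 and 2.82 at days 1, 2, 5 and 9, collagens of 0.14, 0.97, 1.37 and 1.84, and oxidative phosphorylation genes of -0.72, -0.90, -1.22 and -1.48. Tubular injury markers were at 2.09, 1.78, 2.19 and 2.32 on the same days. Macrophage, collagen and oxidative phosphorylation medians were ordered by day with day 5 between days 2 and 9, and injury markers were not. No test of these list medians was made.

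Among obstructed kidneys alone, day 5 minus the mean of days 1, 2 and 9 passed for 11 genes (0.0646%). Of these 10 were higher at day 5 than that mean, which does not make them higher than at day 9. Traf1, an adaptor of tumour necrosis factor receptors, was at -1.01 ± 0.56 (SD, n = 3) at day 1, -0.50 ± 0.26 (n = 3) at day 2, 1.49 ± 0.27 (n = 3) at day 5 and 1.36 ± 0.04 (n = 4) at day 9. The contrast was 1.54 ± 0.18 (limma adjusted p = 0.00302), and the day 5 and day 9 values overlapped. Lrrc17 was at 1.53 ± 0.20, Vcam1 at 1.74 ± 0.26, Nlrp10, an innate immune sensor, at 1.27 ± 0.20, Col6a4 at 1.09 ± 0.17, Trem2 at 1.09 ± 0.16 and the gelatinase gene Mmp2 at 1.06 ± 0.15. Il4i1, an amino acid oxidase, Zbtb7c and Kdm4a, a histone demethylase, were at 0.98 ± 0.17, 0.64 ± 0.07 and 0.59 ± 0.10. Obstructed means were lower at day 5 than at day 9 for Nlrp10 (1.90 against 2.16) and Il4i1 (2.16 against 2.25). The same held for Trem2 (-0.58 against -0.07) and Mmp2 (-0.38 against 0.27). Those of Col6a4 (1.69 against 1.67) and Zbtb7c (0.45 against 0.41) were close. Means were higher at day 5 for Lrrc17 (-0.55 against -0.76), Vcam1 (0.82 against -0.01) and Kdm4a (-0.53 against -0.85). Maoa, a monoamine oxidase, was lower at day 5 in this contrast, at -0.62 ± 0.09, with obstructed levels of 0.22 at day 1 and -0.91, -1.27 and -1.25 at days 2, 5 and 9.

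Of the obstructed day 5 arrays S19L and S21L were in image folder 1 and S31L in folder 2, while the obstructed arrays of all other days were in folder 2. With the folder as a block 0 genes passed, and 1516 had an unadjusted p below 0.05. Without S31L 5 of the 11 genes were called, without S19L 3 and without S21L 3, and Traf1 and Zbtb7c were called in each of those fits. Sham day 5 minus the mean of the other sham days passed for 0 genes, with 614 at an unadjusted p below 0.05, and for 88 without S22L.

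**Figure D4:**
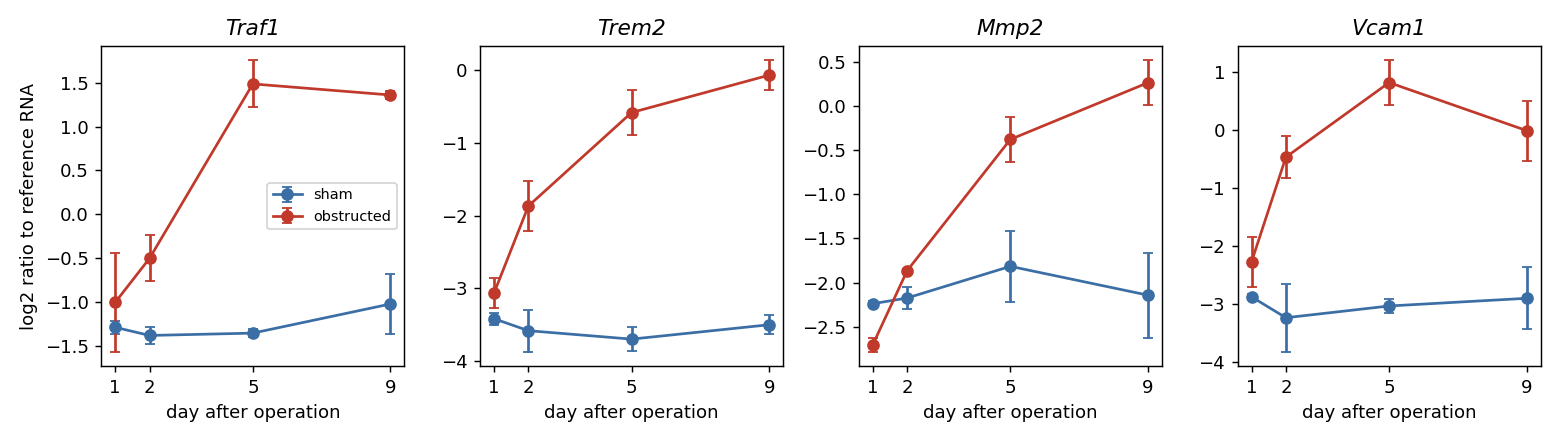
Levels of Traf1, Trem2, Mmp2 and Vcam1 by day after the operation (x axis), as group mean log2 ratio of kidney over reference RNA (y axis) with bars of 1 SD (blue, 2 sham replicates a day; red, 3 obstructed at days 1, 2 and 5 and 4 at day 9). Obstructed Traf1 goes from -0.50 at day 2 to 1.49 at day 5 and 1.36 at day 9, while Trem2 and Mmp2 are highest at day 9.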

How the data were processed

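Mouse kidney RNA (Cy5) and a universal reference RNA (Cy3) shared each 2-colour array, in 1 dye orientation, per the labels. The values deposited by the authors are taken to be log10 ratios, kidney over reference. Their unit was inferred from a range of -3.11 to 4. Scanner software, background correction and dye normalization were not given in the sources used here.

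Exact zeros, 13.2% to 15.7% of the spots of a day 5 array, were set to missing, values were converted to log2 (factor 3.32), and each array's median was subtracted. Probes measured on at least 18 of 22 arrays and in every group were averaged per gene. By GEO's platform annotation 33653 probes named 1 gene, 56 named several and 11511 named none, with 48 symbols updated through RefSeq. Of 17021 genes 7301 had over 1 probe, 19 had probes called in opposite directions and 176 lacked a value on a day 5 array, which the fit left out. S03L and S03R, sham arrays of day 1 that share a replicate number, were averaged, leaving 21 replicates. The labels do not explain the letters L and R that end array names. R ended the names of some sham arrays of days 1 and 2 and of no obstructed array. Limma 3.58.1 in R 4.3.3 fitted 8 group means with eBayes, with Benjamini-Hochberg adjustment over all genes. The fit was also run on simulated data with independent noise for each gene. Such noise leaves out shifts shared by many genes, as on S32L, so the run cannot show how the fit handles them.

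Groups, members, tests and the 39 gene lists (710 distinct genes tested) were chosen with earlier results of these data known. Genes named were the 12 largest rises and 12 largest falls among called genes with groups that did not overlap and values on all 5 arrays, the 4 with the lowest p in each list, up to 8 each way for day 5 against other days, and fixed genes of injury, scarring and transport. Clone and predicted names were passed over. Other genes named, such as list members that did not pass, the 11 of the obstructed contrast and those that set an array apart, were chosen after their values were seen. Spp1, Cd68 and C3 were not analysed here. Alternatives were no centring, quantile normalization, zeros kept as ratios of 1, other filters on missing values, single probes, only the day 5 arrays, a block for the image folder or values within folders, each day 5 array left out, S03L and S03R apart, array weights, robust eBayes, a 2-fold minimum and, chosen after seeing the data, the Xist level as a covariate.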

Additional observations from a re-analysis of the deposited data

Results flagged for a closer look

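Probes that name no gene or several genes were left out of the gene tests. Tested by themselves with the same limma fit, 854 of 7265 passed at day 5, of which 469 were higher and 385 lower in obstructed kidneys. They are given as a count because no comparison above uses them.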

How the results depend on the processing

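The day 5 count of 4428 became 1787 with a 2-fold minimum, 2532 with the day 5 arrays alone (2311 shared), 7021 of 29365 probes taken singly and 2604 to 4095 when a day 5 array was left out. Higher genes numbered 1233, 1454, 4218 and 1489 to 2396 in these settings. Lower genes numbered 554, 1078 and 1097 to 1699, and 2852 with no centring and 2874 with zeros kept. With the image folder as a block 4457 genes were called, 4217 of them shared. The 11 genes of the obstructed contrast became 7 with a 2-fold minimum, 57 after quantile normalization, 0 with the folder block, 20 with S03L and S03R apart, 61 with array weights, 19 by probe, 35 with the Xist covariate and 3 to 11 when an array was left out. Leaving out an array gave 0 to 1 genes for day 5 against the other days and against day 2, and 0 to 88 for sham day 5. The cause was not tested, except that a fold minimum removes small differences and smaller fits hold fewer arrays. Of 163 named genes called at day 5, 115 were called under every alternative with a test, and no called value changed sign. Many of these genes were named for groups that did not overlap or for a low p on these same arrays. Groups that do not overlap fix the sign within a folder or with an array left out, so those settings could not reverse it. No paired analysis was possible because the arrays of the operation groups share no replicate numbers in the labels. Signal over background was not analysed here, and the day 5 groups hold 3 and 2 arrays.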
